A study of Mus musculus with 4 samples.

Results

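B cell genes were followed in medullary thymic epithelial cells (mTECs) of the mouse. The 9 genes are *Fcer2a*, *Cr2*, *Cd22*, *Cd79a*, *Cd79b*, *Ms4a1*, *Blk*, *Ebf1* and *Pax5*, out of 23337 gene symbols counted in each library. They were taken by symbol and were chosen by their known place in B cells together with their measured levels in these same libraries, where *Fcer2a* is high and *Pax5* nearly absent. Levels are therefore described and not tested. mTECs were sorted as CD45- EpCAM+ UEA-1+ Ly51- cells from thymi of C57BL/6 mice aged 4 weeks, with 2 libraries from WT mice and 2 labelled Sirt6-/-. The study's methods describe the latter as *Foxn1*-Cre *Sirt6* loxp/loxp mice (*Sirt6* cKO), in which Cre is made by thymic epithelial cells, and the WT mice as *Foxn1*-Cre negative littermates or age-matched mice. How many mice went into a library, and whether WT mice carried the loxp alleles, is not given in the sources used here.

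Mature B cells read antigen through surface immunoglobulin, which signals through the paired chains CD79A and CD79B. Src-family kinases such as BLK and LYN phosphorylate these chains, SYK and BLNK carry the signal onward, CR2 (CD21) lowers the threshold and CD22 raises it. PAX5 and EBF1 are the transcription factors that set and hold B cell identity. B cells reside in the thymic medulla in small numbers, and several genes of the list are also used outside B cells: *Cr2* and *Fcer2a* by follicular dendritic cells and *Ebf1* by mesenchymal stroma.

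The libraries held between 61102704 and 65907745 counts. *Sirt6* itself was not lower under its knockout label, with counts of 622 and 755 for WT against 882 and 835 for *Sirt6* cKO (log2 fold change 0.37, standard error 0.32), so every direction below refers to libraries labelled *Sirt6* cKO. A count over the whole gene does not show whether some of its exons were deleted. The defining epithelial genes were abundant, with *Epcam* between 798 and 1201 TPM (transcripts per 1000000, a level scaled per length) and *Aire* between 395 and 754 TPM. *Ptprc*, which encodes the CD45 that the sort selected against, lay between 106 and 177 TPM.

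On GRCm38 (the assembly of mm10), with GENCODE M21 as annotation, *Cd22* lies on chromosome 7 from 30865402 to 30880342 and *Cd79a* on the same chromosome from 24897381 to 24902197. *Cd79b* and *Ebf1* lie on chromosome 11, from 106311341 to 106314762 and from 44617317 to 45008091. *Fcer2a* lies on chromosome 8 from 3681737 to 3694175, *Cr2* on chromosome 1 from 195136811 to 195176716, *Pax5* on chromosome 4 from 44524757 to 44710487, *Ms4a1* on chromosome 19 from 11249675 to 11266241 and *Blk* on chromosome 14 from 63372836 to 63417037. The members are thus spread over 7 chromosomes. Exons of *Cd22* overlap those of *Gm29439* on the other strand by 479 bases, and 10.3% of the 50-base words of its longest coding transcript occur in other genes. For *Cd79a* the share was 8.31%, for *Fcer2a* 1.78% and for the other 6 genes 0%. Exons of *Pax5* overlap those of 2 genes on the other strand, *5730488B01Rik* and *Gm12462*, and none of these 3 partner genes was analysed here.

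Promoter sequences from RefSeq (GRCm38.p6) matched 6 of the 9 genes, with 9 windows in all. *Cd79b*, *Ms4a1* and *Blk* were not matched. The 250 bases before each start were searched on both strands for the palindromic EBF motif (TCCC, any 2 bases, GGGA), for the octamer ATGCAAAT and for GAGGAA, a core of PU.1 and SPI-B sites; the 3 motifs did not overlap where they were found. The EBF motif stood in the *Cd22* window, from 49 to 40 bases before the start, and in 0.779% of 32851 windows of all genes. GAGGAA stood on the other strand in the *Cd79a* window, from 140 to 135 bases before the start, and in 1 of 2 *Ebf1* windows, beside 23.3% of all windows. The octamer was in 0 of the 9 windows and in 1.60% of all windows. The last 150 bases before the start are shown for the windows with the EBF and GAGGAA matches of the receptor genes, with the matches in capitals, and for the outermost start of *Fcer2a*, the most abundant gene, which held no match. They are chr7:30879029-30879178 (minus strand), chr7:24897347-24897496 (plus strand) and chr8:3694175-3694324 (minus strand).
Cd22: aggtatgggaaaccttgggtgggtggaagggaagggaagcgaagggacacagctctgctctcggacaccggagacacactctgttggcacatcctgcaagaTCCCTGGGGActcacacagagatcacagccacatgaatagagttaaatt
Cd79a: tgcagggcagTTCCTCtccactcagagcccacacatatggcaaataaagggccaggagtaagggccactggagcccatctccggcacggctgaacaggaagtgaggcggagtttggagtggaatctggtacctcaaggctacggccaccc
Fcer2a: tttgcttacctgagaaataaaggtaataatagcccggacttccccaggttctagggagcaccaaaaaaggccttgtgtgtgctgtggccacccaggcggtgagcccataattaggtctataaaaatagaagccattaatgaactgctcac

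By mean TPM the genes fell in the order *Fcer2a*, *Cd79b*, *Blk*, *Cd79a*, *Ms4a1*, *Ebf1*, *Cr2*, *Cd22* and *Pax5*. *Fcer2a*, *Cd79b* and *Pax5* held the same place in all 4 libraries, as did *Ebf1* in the sixth place. Over the 4 libraries the ranges of *Blk* and *Cd79a*, of *Cd79a* and *Ms4a1*, and of *Cr2* and *Cd22* overlapped. Within libraries *Cd79a* stood above *Ms4a1* in all 4, whereas the other overlapping pairs changed order between the groups. *Blk* stood below *Ms4a1* in both WT libraries and above *Cd79a* in both *Sirt6* cKO libraries.

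**Figure D1:**
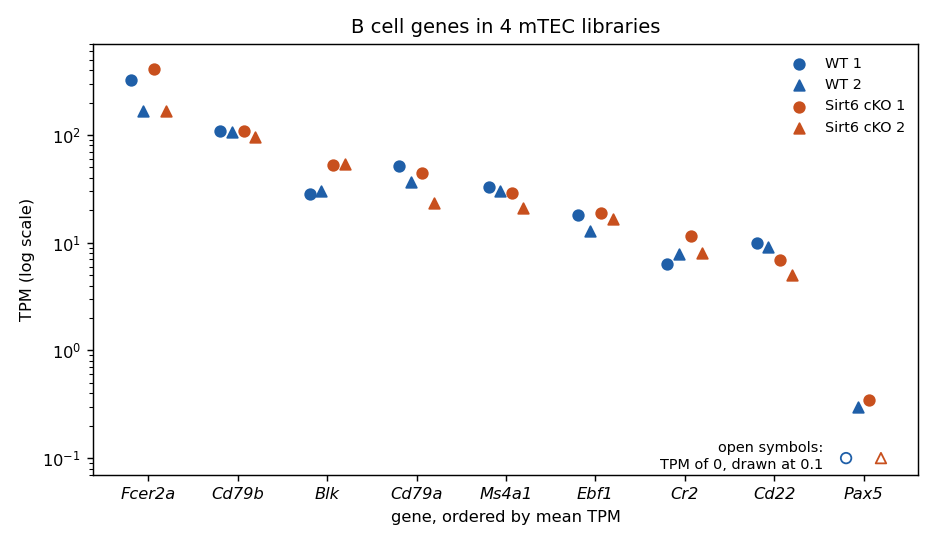
Deposited TPM (log scale) of the 9 genes in each library, ordered by mean; colors mark the groups and symbols the libraries, and open symbols mark a TPM of 0. The levels run from 407 TPM for *Fcer2a* to 0 for *Pax5*, and the *Blk* points of the groups stand apart.

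*Fcer2a* encodes CD23, the low-affinity receptor for IgE. The WT libraries held 322 and 166 TPM and the *Sirt6* cKO libraries 407 and 168 TPM, which placed it between the 95.4 and 98.6 percentile of all genes. Each group held 1 high and 1 low library, and the groups overlapped. The gene made up 55.7% and 41.4% of the summed TPM of the 9 genes in the WT libraries and 60.0% and 42.8% in the *Sirt6* cKO libraries. Its level was between 5.43 and 13.9 times that of *Ms4a1* by the TPM of each library. *Cr2*, which encodes the complement receptor CD21, stood far lower, at 6.31 and 7.80 TPM in WT and 11.6 and 8.04 TPM in *Sirt6* cKO.

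The chains of the B cell receptor complex were both measured. *Cd79b* had 109 and 107 TPM in WT and 108 and 96.5 TPM in *Sirt6* cKO. Taken as a fold of the highest over the lowest library, this was the narrowest range of the 9 genes. *Cd79a* had 51.2 and 36.7 TPM in WT and 44.4 and 23.2 TPM in *Sirt6* cKO, and the ratio of *Cd79b* to *Cd79a* ran from 2.14 to 4.16. The immunoglobulin genes of the prepared list (*Ighm*, *Ighd*, *Igkc*, *Iglc1*, *Iglc2* and *Iglc3*) were not analysed here. *Ms4a1*, which encodes CD20, had 32.8 and 30.5 TPM in WT and 29.2 and 20.8 TPM in *Sirt6* cKO. *Cd22*, an inhibitory receptor that binds sialic acid, had 9.96 and 9.06 TPM in WT and 6.86 and 5.04 TPM in *Sirt6* cKO. *Ms4a1* and *Cd22* were lower in both *Sirt6* cKO libraries than in either WT library, whereas the groups overlapped in *Cd79a* and *Cd79b*.

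The lineage factors *Ebf1* and *Pax5* had very different levels. *Ebf1* had 18.3 and 12.9 TPM in WT and 19.0 and 16.6 TPM in *Sirt6* cKO, from 829 to 1239 counts. *Pax5* was counted 11 times in WT 2 and 12 times in *Sirt6* cKO 1, at 0.298 and 0.343 TPM, and 0 times in the other libraries. Each group thus held 1 library at 0, and a count of 0 allows up to 3 counts, by counting error only. The length behind a TPM can be read from the ratio of count to TPM, scaled on 1182 coding genes with a single annotated transcript. That length was 1293 bases for *Pax5* in WT 2 and 1262 bases in *Sirt6* cKO 1, while coding transcripts of *Pax5* in GENCODE M21 range from 324 to 8004 bases. For *Ebf1* it was 2247 to 2249 bases, where the shortest coding transcript of GENCODE has 2864, and for *Ms4a1* it was 2059 bases, where the one coding transcript has 3075. For *Cr2* it was 6214 to 6217 bases beside a longest coding transcript of 6212, and for *Fcer2a* 2146 to 2180 bases beside 2242. What the shorter gene models leave out of the counts of *Ebf1* and *Ms4a1*, and which transcript was counted for *Pax5*, was not tested.

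The comparison asks which genes differ between mTECs labelled *Sirt6* cKO and WT. All 9 genes passed the filter on low counts and were tested in a fit over 18547 genes. By edgeR's quasi-likelihood test, *Blk* was higher at the 0.05 level of the unadjusted p, and 0 of the 9 genes were lower. Among all genes tested 5.27% were higher and 3.32% lower at that threshold. At an adjusted p of 0.05, 0 of the 9 genes were called by edgeR, where 0.00539% of all genes were, and 1 of the 9, *Blk*, was called by DESeq2, where 1.83% were. The groups did not overlap in 4 of the 9 genes (*Blk*, *Cr2*, *Ms4a1* and *Cd22*), a share near the 41.9% of all genes tested. The median log2 fold change of the 9 genes was 0.20, or 0.06 without *Pax5*, beside -0.0047 for all genes tested. In sorted bulk cells, a change in the number of cells that carry an RNA and a change in RNA per cell cannot be told apart.

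**Figure D2:**
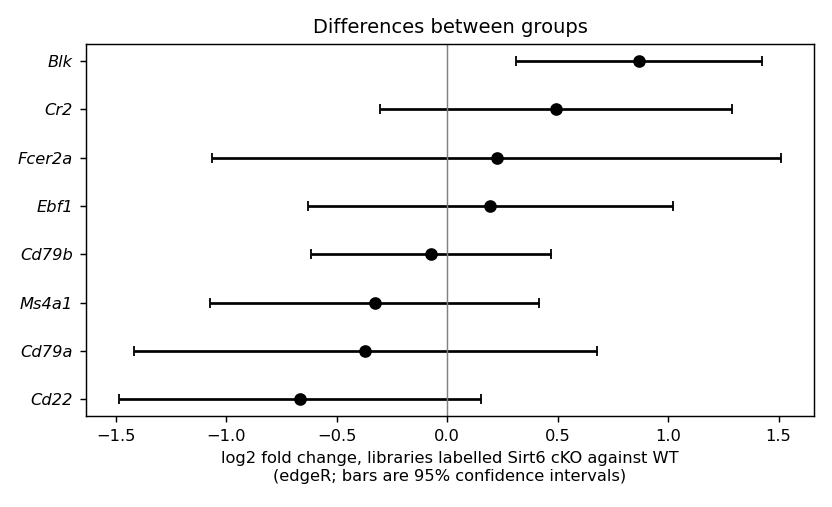
Log2 fold change of *Sirt6* cKO against WT for 8 genes from edgeR, with bars for the 95% confidence interval; *Pax5* is left out because its interval ran from -6.70 to 7.09. The interval of *Blk* lies above 0 and the other 7 intervals include 0.

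For *Blk*, a Src-family kinase, the WT libraries held 2129 and 2130 counts and the *Sirt6* cKO libraries 3577 and 3924. Scaled to 1000000 counts (CPM), the mean of the WT libraries was 33.0 ± 0.668 (SD, n = 2) and that of the *Sirt6* cKO libraries 60.2 ± 1.35 (SD, n = 2). Both *Sirt6* cKO libraries stood well above both WT libraries, and the libraries of a group lay close together. The log2 fold change was 0.87 (standard error 0.22, 95% confidence interval 0.31 to 1.43), or 1.82-fold higher, and edgeR's quasi-likelihood test gave an unadjusted p of 0.00975 and, after Benjamini-Hochberg adjustment, an adjusted p of 0.541. DESeq2 gave an adjusted p of 0.0474. Without *Sirt6* cKO 2, the log2 fold change was 0.83 and the unadjusted p 0.0548. *Spib*, a factor of both B cells and mTECs, was higher in the same libraries, with WT at 517 ± 1.62 CPM (SD, n = 2) and *Sirt6* cKO at 1132 ± 30.8 CPM (SD, n = 2), and the epithelial list below had 4 of 12 genes higher. Their part in the result for *Blk* was not tested.

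The WT libraries averaged 17.7 ± 1.54 CPM (SD, n = 2) for *Cd22*, and the *Sirt6* cKO libraries 11.2 ± 2.46 CPM (SD, n = 2). Its log2 fold change was -0.67 (standard error 0.33, 95% confidence interval -1.49 to 0.15), and edgeR gave an unadjusted p of 0.0923. *Ms4a1* lay at 29.6 ± 2.08 CPM for WT (SD, n = 2) and, for *Sirt6* cKO, at 23.6 ± 5.71 CPM (SD, n = 2), which is -0.33 on the log2 scale (95% confidence interval -1.08 to 0.42). *Cr2* lay at 19.9 ± 2.59 CPM for WT (SD, n = 2) and, for *Sirt6* cKO, at 28.0 ± 7.35 CPM (SD, n = 2), which is 0.49 on the log2 scale (95% confidence interval -0.31 to 1.29). The groups did not overlap in these 3 genes, but each interval includes 0.

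*Cd79b* had the log2 fold change closest to 0, -0.07, with a 95% confidence interval of -0.62 to 0.47. *Cd79a* had -0.37 (95% confidence interval -1.42 to 0.68) and *Ebf1* 0.20 (95% confidence interval -0.63 to 1.02). *Fcer2a* had 0.22 (95% confidence interval -1.06 to 1.51). Its sign turned to -0.54 without *Sirt6* cKO 1 and to -0.19 without WT 2, and its value was 0.79 without WT 1. *Ebf1* turned to -0.05 without WT 2 and *Cd79a* to 0.01 without *Sirt6* cKO 2.

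**Figure D3:**
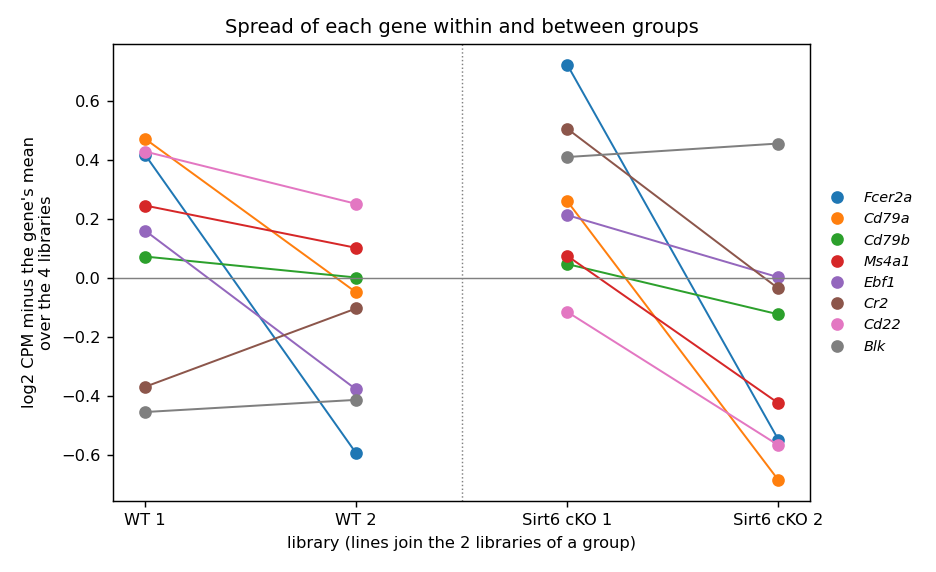
Log2 CPM of 8 genes in each library, less the gene's mean over the 4 libraries; lines join the 2 libraries of a group and *Pax5* is left out for its 0 counts. *Blk* is flat within groups and steps between them, while *Fcer2a* and *Cd79a* move more within a group than between groups.

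The within-group spread separated the members. In WT the fold between libraries was close to 1 for *Blk* (32.5 and 33.5 CPM) and *Cd79b* (60.4 and 57.5 CPM) and, *Pax5* aside, largest for *Fcer2a* (324 and 160 CPM). In *Sirt6* cKO *Fcer2a* had 400 and 166 CPM and *Cd79a* had 27.1 and 14.0 CPM. The 16036 genes with a mean of at least 1 CPM were compared with *Fcer2a* by log2 CPM, after centering each gene on its mean. Those closest over the 4 libraries were *Pdzd4* (Euclidean distance 0.09), *Clec10a* (0.14) and *H2-T9* (0.17). They were picked from many genes over only 4 libraries, so the distances do not show regulation shared with *Fcer2a*.

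Other genes of B cells were described from a prepared list of 23, of which 17 were counted and tested. Of these, 5 had a positive and 12 a negative log2 fold change, with a median of -0.24. At an unadjusted p of 0.05 from edgeR, 0 were higher and 1 was lower, *Fcmr* (listed as *Faim3*), the Fc receptor for IgM, at -1.35 (standard error 0.47). The count of lower genes was 2 or 3 under the alternatives fitted to all libraries, 4 without WT 2 and 0 without any other single library. *Cd180*, a toll-like receptor relative, had the lowest value of the list, -1.56 (standard error 0.81). *Siglecg*, an inhibitory lectin related to *Cd22*, had the highest, 0.56 (standard error 0.32). The most abundant gene of the list was *Blnk*, the adaptor downstream of SYK, between 197 and 283 TPM. The summed TPM of the list was 1030 and 929 in WT and 846 and 1020 in *Sirt6* cKO, so the groups overlapped.

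The B cell receptor signaling list held 24 genes, all tested, with 2 higher, 2 lower and 20 that did not pass an unadjusted p of 0.05. *Syk*, the kinase that docks on the phosphorylated CD79 chains, was higher by 0.80 on the log2 scale (standard error 0.27), with both *Sirt6* cKO libraries above both WT libraries. *Malt1*, of the complex that links the receptor to NF-κB, was higher by 0.81 (standard error 0.31). *Fcgr2b*, the inhibitory Fc receptor of B cells and myeloid cells, was lower at -1.48 (standard error 0.38, adjusted p = 0.541 from edgeR and 0.0256 from DESeq2). *Rasgrp3* was lower at -0.96 (standard error 0.34). Under the alternatives fitted to all libraries, the count of higher genes ranged from 1 to 3 and that of lower genes from 1 to 2. The count of higher genes in the list was 0 without *Sirt6* cKO 1 or without *Sirt6* cKO 2 and 1 without either WT library, and that of lower genes was 4 without WT 2 and 1 without WT 1 or *Sirt6* cKO 2. *Lyn*, which acts beside *Blk*, had 0.57 (standard error 0.24) and did not pass. *Bcl10* had the highest level of the list, between 210 and 257 TPM.

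Among 17 other transcription factors of B cells, 3 were higher and 0 lower at an unadjusted p of 0.05. These were *Spib* (log2 fold change 1.13, standard error 0.14), *Irf4* (0.99, standard error 0.22) and *Irf8* (0.40, standard error 0.15). *Bcl6* had the highest value, 1.29, with a standard error of 1.06, and *Spi1* (listed as *Sfpi1*), which encodes PU.1, the lowest, -0.74 (standard error 0.41). *Spib* was the most abundant, between 403 and 908 TPM, far above *Ebf1* and *Pax5*.

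**Figure D4:**
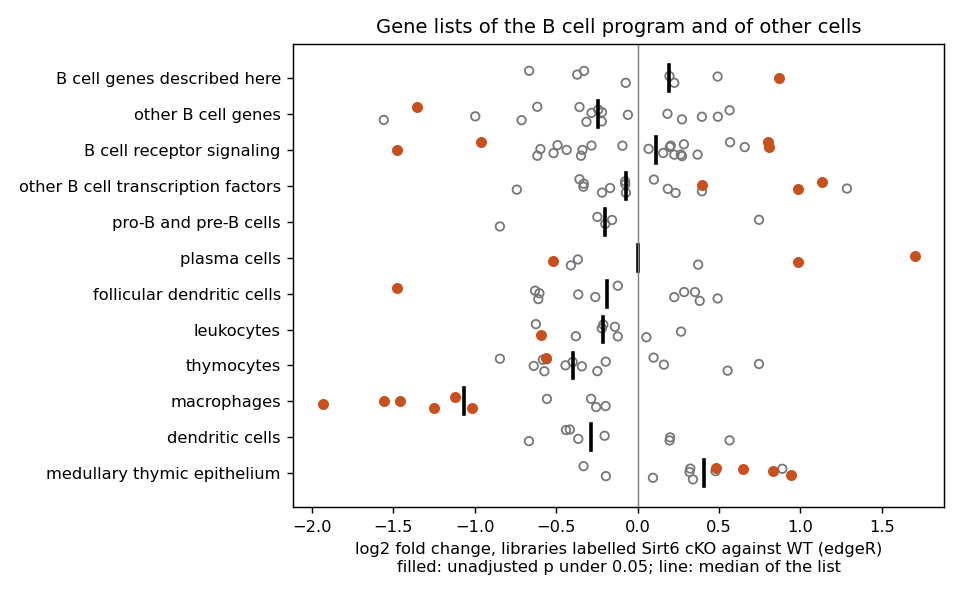
Log2 fold change of *Sirt6* cKO against WT for the genes of each list (edgeR), with filled points for an unadjusted p under 0.05 and a line at the list's median; *Pax5* is not drawn. The B cell lists have medians between -0.24 and 0.20, and the macrophage list lies at -1.07 with all 10 genes below 0.

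Genes of neighboring B cell states were mixed. Of 7 genes of pro-B and pre-B cells, 5 were tested and 0 were called; *Vpreb1* had 17 counts in WT 1 and 0 in the other libraries, the log2 fold change of *Rag1* was 0.75 (standard error 0.74) and that of *Rag2* -0.85 (standard error 1.48). *Rag1*, *Rag2* and *Dntt* are also used by thymocytes and stand in the thymocyte list too. *Dntt* was the most abundant gene of the pro-B and pre-B list, between 144 and 319 TPM. Of 6 plasma cell genes tested, *Prdm1* (1.70, standard error 0.55) and *Irf4* were higher and *Xbp1* (-0.52, standard error 0.18) was lower. *Jchain* (listed as *Igj*), the joining chain of secreted IgA and IgM, lay between 356 and 1140 TPM and was not called (-0.37, standard error 0.63). Among 12 genes used by follicular dendritic cells, *Cr2* and *Fcer2a* included, *Fcgr2b* was lower and 0 were higher. *Cr2* had the highest log2 fold change of that list, 0.49, and *Clu* the highest level, between 1268 and 1804 TPM.

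Markers of the other cells that a sort of mTECs could hold were set beside these values. The 9 leukocyte genes, *Ptprc* among them, had a summed TPM of 3448 and 3361 in WT and 3358 and 2695 in *Sirt6* cKO, and *Arhgdib* alone was called, at -0.59 (standard error 0.20). *Coro1a* had the highest level of them, *Cd48* the lowest log2 fold change (-0.63) and *Ptprc* the highest (0.27). The 15 thymocyte genes summed to 1948 and 1424 TPM in WT and 1597 and 1019 TPM in *Sirt6* cKO, with *Cd2* lower (-0.56, standard error 0.20) and a median of -0.40. *Lck* was the most abundant of them, between 199 and 428 TPM. The 8 dendritic cell genes summed to between 110 and 116 TPM in all libraries, with 0 called and values from -0.67 (*Xcr1*) to 0.56 (*Zbtb46*). *Siglech* had the highest level of them, between 52.0 and 72.7 TPM. The 10 macrophage genes summed to 11453 and 6771 TPM in WT and 4169 and 4475 TPM in *Sirt6* cKO, with 6 lower (*Lyz2*, *Cd68*, *C1qa*, *C1qb*, *C1qc* and *Adgre1*, listed as *Emr1*), from -1.02 to -1.93, and 3 lower without *Sirt6* cKO 1. The 12 genes of medullary epithelium summed to 22045 and 22720 TPM in WT and to 24116 and 24114 TPM in *Sirt6* cKO. *H2-Aa*, between 14864 and 16768 TPM, made up most of each sum. Of the 12 genes, 10 had a positive and 2 a negative log2 fold change, *Krt8* (-0.33) and *Fezf2* (-0.20). *Cd80* (0.94), *Foxn1* (0.83), *Aire* (0.65) and *Epcam* (0.48) were called higher. *Cd14* had the highest log2 fold change of the macrophage list, -0.20. *Lyz2* made up most of the macrophage sum in each library, at 9532 and 5941 TPM in WT and 3664 and 3955 TPM in *Sirt6* cKO. No gene of these 5 lists was at 0 in any library. *Fcgr2b* and *Cd22* were lower in both *Sirt6* cKO libraries than in either WT library, as was the macrophage sum. So were other genes, among them *Ms4a1*, *Fcmr* and *Cd2*. Of all genes tested, 41.9% did not overlap between the groups, in either direction. The part of macrophages in the results for *Fcgr2b* and *Cd22* was not tested.

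**Figure D5:**
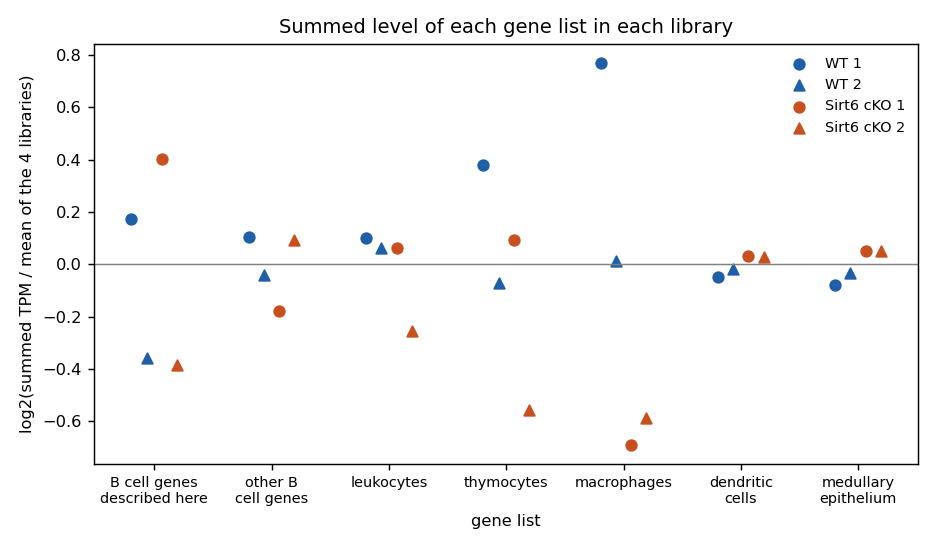
Log2 of the summed TPM of each gene list in each library, relative to the mean of the 4 libraries; colors mark the groups. The summed 9 B cell genes split within groups (579 and 400 TPM in WT, 678 and 393 TPM in *Sirt6* cKO). The macrophage sum, most of it *Lyz2*, is lower in both *Sirt6* cKO libraries and also splits within WT (11453 and 6771 TPM).

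The summed TPM of the 9 genes was 579 and 400 in WT and 678 and 393 in *Sirt6* cKO. Without *Fcer2a* the sums were 256 and 235 in WT and 272 and 224 in *Sirt6* cKO, so that most of the difference between libraries of a group was carried by that gene. In both sums the WT values lay between the *Sirt6* cKO values.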

How the data were processed

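The authors used Trim Galore for trimming, HISAT2 2.1.0 for alignment to mm10 and StringTie 1.3.3 for quantification, per the labels and methods; the gene annotation and strandedness are not given in the sources used here. The deposited counts are raw whole numbers per gene. The deposited expression signal of each library was in TPM and summed to 1000000; 1 line that named no gene and repeated this total (100% of the sum) was left out.

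The 9 genes and all lists were chosen with earlier results of these data known. Genes were tested with edgeR 4.0.16 in R 4.3.3 (TMM factors, filterByExpr at min.count 10 and min.total.count 15, glmQLFit, glmQLFTest), and p-values were adjusted over all 18547 genes by the Benjamini-Hochberg method. The standard error is the log2 fold change divided by the root of the F statistic. CPM used the TMM factors. The smallest two-sided p of an exact permutation test is 0.333 at this group size, so none was used. The study's methods call the samples of a group independent and parallel, but no source used here says whether they came from separate mice, so p-values measure the spread between libraries. No 2 libraries agreed within sampling noise (chi-square per gene of 154 or more).

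The text names the 9 genes, *Sirt6*, and from each list the genes that passed an unadjusted p of 0.05 and those with the highest level and the largest and smallest fold change; other names were chosen after their values were seen. Alternatives were DESeq2 1.42.0, no filter, a TPM above 0.1 required in each library as the authors did, scaling by upper quartile or by library size, a replicate block, limma 3.58.1 on log2(TPM + 1) and log2(TPM + 0.1), and each library left out.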

Additional observations from a re-analysis of the deposited data

How the results depend on the processing

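*Blk* kept a positive log2 fold change, between 0.78 and 0.87, and an unadjusted p under 0.05 under all 8 alternatives fitted to the 4 libraries, and lay between 0.82 and 0.89 with 1 library left out. With DESeq2, 1 of the 9 genes was called higher at an adjusted p of 0.05, against 0 with edgeR. The count of the 9 genes called higher at the unadjusted p ranged from 0 to 1 with 1 library left out, being 0 without *Sirt6* cKO 2, and 0 were called lower under any alternative. The median log2 fold change was 0.20 over the 9 genes and 0.06 over the 8 without *Pax5*. It was -0.06 without WT 1 and 0.28 without *Sirt6* cKO 2 over 9 genes, and -0.35 without *Sirt6* cKO 1 and -0.15 without WT 2 over 8 genes, as *Pax5* was not tested there. Single genes that changed sign were *Fcer2a* (-0.54 without *Sirt6* cKO 1 and -0.19 without WT 2, up to 0.79), *Pax5* (-0.82 without WT 1, up to 1.16), *Ebf1* (-0.05 without WT 2, up to 0.47) and *Cd79a* (0.01 without *Sirt6* cKO 2, down to -0.92). *Pax5* gave no value without WT 2, without *Sirt6* cKO 1 or with the TPM filter, since it was then not tested. Of the 121 genes tested on the other lists, 10 were called higher and 12 lower at the unadjusted p, and the latter ranged from 7 to 22 with 1 library left out. The count of lower genes ranged from 0 to 2 for leukocytes and thymocytes (0 without WT 1 or *Sirt6* cKO 2), from 0 to 1 for plasma cells (1 without WT 2, 0 without any other library) and from 1 to 3 for follicular dendritic cells (3 without WT 2). These ranges cover only the fits with 1 library left out. In these fits 1 group holds a single library, which is assumed to vary like the other group. The cause of the changes was not tested. With all 4 libraries, the count of lower thymocyte genes ranged from 1 to 3, and was 3 under both limma fits. Upper quartile factors and library size alone moved the median of all genes by -0.08 and -0.09, and took the share of calls that were higher from 61.4% to 48.4% and 46.3%; limma on log2(TPM + 1) and log2(TPM + 0.1) gave 51.0% and 51.2%. At the unadjusted p, 735 genes were called without *Sirt6* cKO 1 in place of 1592, and at an adjusted p of 0.05 DESeq2 called 354 genes and edgeR 1. Deviations of libraries with equal replicate numbers correlated at -0.05 over 18547 genes, a value over all genes that cannot show whether single genes follow the number. *Fcer2a* was higher in replicate 1 of both groups. Its unadjusted p from edgeR was 0.678 without and 0.38 with a replicate block. The replicate block gave *Blk* 0.87 with an unadjusted p of 0.0245 from edgeR, changed no call among the 9 genes, and called 1146 in place of 1592 of all genes. Low counts limited the values of *Pax5* and kept *Vpreb1* and *Vpreb2*, at 17 counts or fewer, out of the test.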
